A study of Mus musculus with 4 samples.

Results

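The Zfp genes, a large family of zinc finger protein genes, were examined for N6-methyladenosine (m6A) peaks in mouse liver RNA. Members were all genes whose symbol in either deposited peak list begins with Zfp followed by a number. There were 279 such genes of 9650 with a peak, and they carried 584 of 14693 peaks in the HKO list and 515 of 14057 peaks in the FF list. Of the 279 genes, 277 are protein coding in RefSeq. The protein description given by the authors names a zinc finger for 268 of the genes, and the other 11 descriptions use another name, such as mRNA decay activator or ubiquitin ligase.

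The HKO list came from livers of Alkbh5-HKO mice and the FF list from livers of Alkbh5flox/flox mice, which carry a floxed Alkbh5 gene. ALKBH5 is a demethylase that removes m6A from RNA. Neither the meaning of HKO nor the Cre driver is given in the labels. All mice were on normal chow and 9 weeks old, and RNA of 3 mice was pooled for each genotype, so each list rests on 1 pool, with an immunoprecipitated (IP) library set against its input. A peak is a stretch of exon enriched in IP reads, its fold is the ratio of IP to input that the authors gave it, and its q is their p-value adjusted for multiple testing. With 1 pool per genotype, nothing that sets the lists apart could be checked in replicates. Intervals are 95% Wilson intervals that cover counting error only, and fewer cells of a type and less RNA per cell cannot be told apart in bulk liver. Of 8 hepatocyte markers 7 had a peak in either list (Asgr1 had none). Peaks were also found on the Kupffer cell marker Clec4f, the endothelial marker Pecam1 and the stellate cell markers Lrat and Dcn, and none on Adgre1, Stab2 or the cholangiocyte markers Krt19 and Epcam. A peak shows that reads were present and does not measure the RNA level.

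Most Zfp proteins carry arrays of C2H2 zinc fingers, small folds held by a zinc ion that read DNA bases. Many pair their fingers with a KRAB domain, which recruits the corepressor TRIM28 and, through it, the histone methyltransferase SETDB1, to silence transposable elements and imprinted genes. A minority are different in kind, such as the CCCH proteins of the Zfp36 group, which bind AU-rich elements of mRNA and speed its decay. The finger array of a C2H2 gene is commonly encoded by a long last exon, and long internal and last exons are where m6A is known to concentrate.

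Zfp genes often had a peak, and those with one carried on average more peaks than other genes. Of 397 coding Zfp genes in RefSeq, 277 had a peak in either list (69.8%), against 40.8% of all 21900 coding genes. Neither set was limited to genes expressed in liver, and the part of expression in this gap was not tested. Members with a peak had on average 2.24 peaks in the HKO list and 1.99 in the FF list, while other genes had 1.70 and 1.67. This was not particular to Zfp genes, since other zinc finger families, given below, also had means above those of other genes. In the HKO list 84 members had 1 peak, 87 had 2, 55 had 3 and 35 had 4 or more (13.4% of the 261 members with an HKO peak, against 6.27% of all genes with one). In the FF list 101 members had 1 peak, 90 had 2, 48 had 3 and 20 had 4 or more (7.72% of 259, against 5.15% of all genes).

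Peaks on Zfp genes had high folds and weak q values. The median fold was 14.4 in the HKO list (interquartile range 8.91 to 22.4) and 11.7 in the FF list (6.77 to 17.4), against 10.2 and 8.62 for peaks of other genes in the HKO and FF lists. The median log10 q was -4.81 in the HKO list and -4.72 in the FF list, while other genes had -9.03 and -7.98. A q of 1e-05 or less was reached by 284 of 584 HKO peaks of members (48.6%, 44.6 to 52.7) and by 246 of 515 FF peaks (47.8%, 43.5 to 52.1), against 66.2% and 62.9% of peaks of other genes. Many member peaks also shared exactly the same pair of values: pairs of fold and q that occur in 5 or more peaks of a list made up 50.3% of HKO peaks and 42.1% of FF peaks of members, against 25.9% and 23.4% for other genes. The commonest pair among HKO peaks, a fold of 11.9 with a log10 q of -2.14, was listed for 18 of them, and the commonest among FF peaks, a fold of 12.5 with a log10 q of -2.33, for 15. The lists hold no read counts, and the part of low read numbers in these repeated values was not tested.

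**Figure D1:**
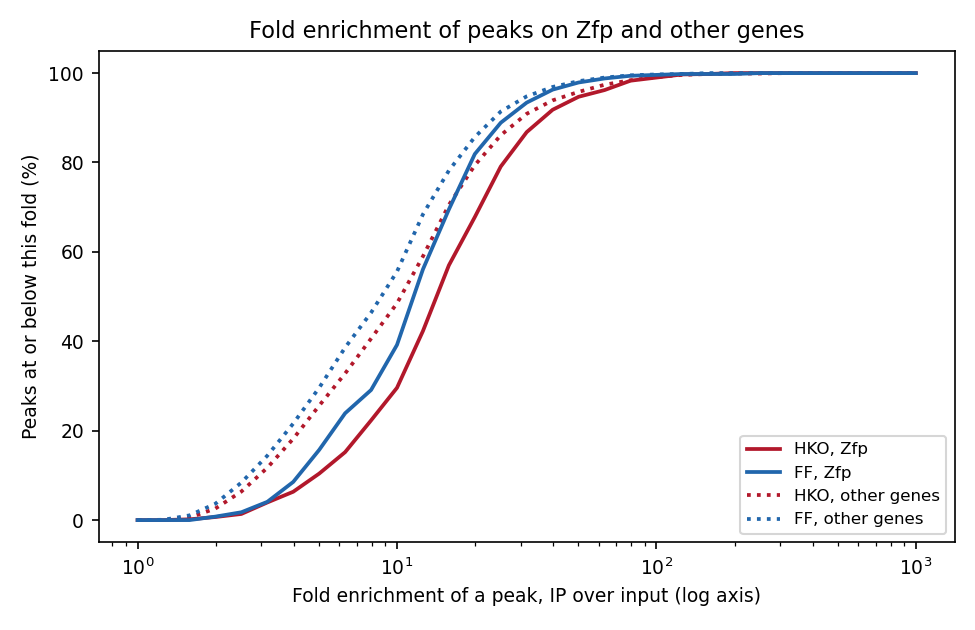
Cumulative share of peaks (%, vertical axis) at or below each fold of IP over input (horizontal log axis), for Zfp genes (solid lines) and other genes (dotted lines) in the HKO list (red) and the FF list (blue). The Zfp curves lie to the right over the lower and middle folds, with medians of 14.4 (HKO) and 11.7 (FF) against 10.2 and 8.62.

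Along the gene, Zfp peaks lay some distance before the annotated end and seldom at the start. Distances were measured on the genome, introns included, to the end of the RefSeq gene span, and are not positions along the mRNA. The median distance from a peak's centre to the gene end was 2563 bp in the HKO list and 2624 bp in the FF list, against 2130 and 2632 bp for other genes, so in FF the medians were close. In the band between 1000 and 4000 bp before the end lay 297 HKO peaks of members (50.9%, 46.8 to 54.9) and 257 FF peaks (49.9%, 45.6 to 54.2), against 33.2% and 32.7% of peaks of other genes. The last 1000 bp held 17.1% of HKO peaks and 17.5% of FF peaks of members, against 31.5% and 26.9% for other genes. A single exon block held 94.7% of HKO peaks and 95.3% of FF peaks of members (85.8% and 82.1% for other genes). The band was chosen after the positions were seen, and no exon models were used, so it is not known how many of these peaks lie in a last exon.

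**Figure D2:**
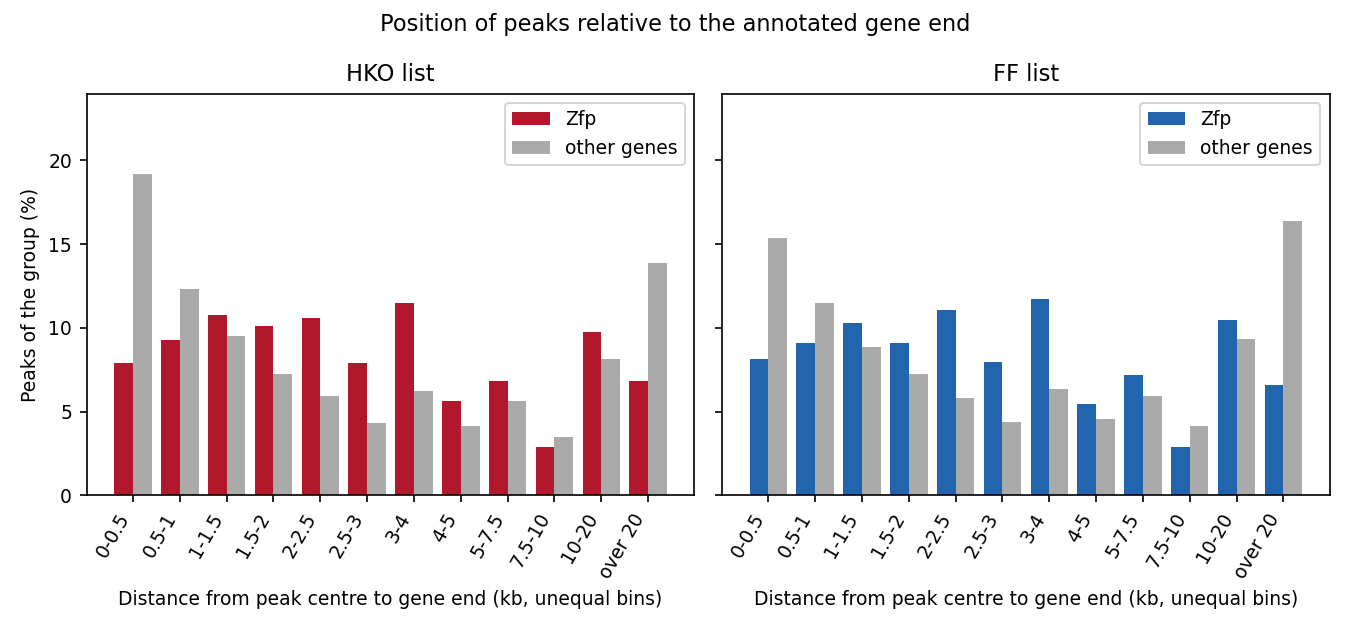
Share of peaks (%, vertical axis) by distance from the peak centre to the annotated gene end (kb, in bins of unequal width), for Zfp genes (coloured) and other genes (grey), with the HKO list on the left and the FF list on the right. In both lists other genes have their tallest bars at the end itself or beyond 20 kb, and the Zfp bars stand above those of other genes in every bin from 1 to 4 kb, which together hold 50.9% (HKO) and 49.9% (FF) of their peaks.

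Peaks at annotated gene starts were few on Zfp genes. Centres within 500 bp of the nearest annotated start were found for 11 HKO peaks (1.88%, 1.05 to 3.34) and 24 FF peaks (4.66%, 3.15 to 6.84), against 9.69% and 19.0% of peaks of other genes. By this count of centres, the peaks lay on 11 genes in the HKO list and 23 in the FF list. Of these genes 8 were in both lists, 3 only in HKO and 15 only in FF. The HKO start peaks of Zfp830 and Zfp622 nevertheless overlap wider FF peaks, centred 641 and 566 bp from the start. On Zfp467, counted in both lists, the HKO and FF start peaks do not overlap. Over all genes, 9.38% of HKO peaks and 18.5% of FF peaks were at a start. How genes with a start peak split between the lists was not counted over all genes. Among peaks that overlap no peak of the other list, 2 of 173 HKO peaks (1.16%, 0.318 to 4.12, with 5.98% over all genes) and 17 of 111 FF peaks (15.3%, 9.79 to 23.2, with 42.0% over all genes) were at a start. On Zfp genes the start share of FF-specific peaks was thus above that of HKO-specific peaks, and both were below the shares over all genes. With both lists cut to peaks of q at most 1e-05, the shares were 2.50% (0.688 to 8.66) in HKO and 6.82% (2.35 to 18.2) in FF. There a peak also counts as list-specific when its partner misses the limit. Of peaks with that q and a fold of 2 or more that overlap nothing in the full other list, 0 of 16 in HKO and 2 of 11 in FF were at a start. The counting intervals overlap in the cut lists and not with all peaks. With 1 pool per genotype, neither tests a difference between the lists. Counting only the start of the whole gene span, the share of FF-specific Zfp peaks was 8.11%.

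To show the sequence at the starts concerned, the 50 bases before the RefSeq start are given in lower case and the first 30 transcribed bases in capitals, 5′ to 3′ on the gene's own strand (RefSeq, GRCm38.p6). The first pair carried the strong FF-specific start peaks, Zfp708 an HKO-specific start peak, Zfp653 and Zfp768 start peaks in both lists, and Zfp655 and Zfp91 FF-specific start peaks with the GGAC core of the m6A motif within the first 50 transcribed bases. Zfp36l1 holds that core too, and the only one inside the printed capitals is that of Zfp655. The stretches show annotated starts and need not lie under a peak. Those of Zfp598 and Zfp91 do not overlap their start peaks, nor does that of Zfp768 overlap its HKO start peak.
Zfp598 (chr17:24669637-24669716, plus strand): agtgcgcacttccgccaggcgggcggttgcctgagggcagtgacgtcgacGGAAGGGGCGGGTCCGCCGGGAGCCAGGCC
Zfp36l1 (chr12:80112984-80113063, minus strand): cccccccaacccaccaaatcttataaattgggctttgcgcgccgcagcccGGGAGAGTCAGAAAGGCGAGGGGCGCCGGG
Zfp708 (chr13:67097947-67098026, minus strand): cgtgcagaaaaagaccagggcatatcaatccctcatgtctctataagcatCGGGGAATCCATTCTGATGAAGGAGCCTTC
Zfp653 (chr9:22071347-22071426, minus strand): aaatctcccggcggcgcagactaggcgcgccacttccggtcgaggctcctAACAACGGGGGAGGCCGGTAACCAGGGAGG
Zfp768 (chr7:127345285-127345364, minus strand): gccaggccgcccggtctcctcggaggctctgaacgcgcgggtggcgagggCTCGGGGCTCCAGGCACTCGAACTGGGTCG
Zfp655 (chr5:145231692-145231771, plus strand): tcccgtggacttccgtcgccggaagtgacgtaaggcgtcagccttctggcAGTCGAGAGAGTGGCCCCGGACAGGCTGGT
Zfp91 (chr19:12796094-12796173, minus strand): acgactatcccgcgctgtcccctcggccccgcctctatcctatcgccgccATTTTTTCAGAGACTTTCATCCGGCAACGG

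Zfp598 encodes the ubiquitin ligase that marks collided ribosomes. Its FF list start peak on chromosome 17, at 24669717 to 24676566 (2 exon blocks, 270 bp of exon), had fold 8.75 with log10 q -16.0, and no HKO peak overlapped it. Zfp36l1 encodes an mRNA decay factor. Its FF start peak on chromosome 12, at 80110415 to 80113013, had fold 4.80 with log10 q -12.8, again with no HKO peak. Zfp708, a KRAB gene that silences a class of retrotransposons, had an HKO start peak at 67097886 to 67097976 on chromosome 13 with fold 12.7 and the weak log10 q of -2.36. The FF start peak of Zfp655 had fold 11.7 and a similar log10 q of -2.12, and it overlapped a peak of Gm6287 on the opposite strand. Zfp653 had overlapping start peaks with folds of 7.07 in HKO and 10.8 in FF, and Zfp768 of 3.14 in HKO and 4.34 in FF. Among the 24 start peak genes with a RefSeq promoter window, GGAC occurred on the transcribed strand of the first 50 bases in 3 (12.5%), against 16.5% of the 406 windows of Zfp genes and 18.9% of all 32851 windows. On either strand the shares were 41.7%, 42.6% and 33.3%. The first transcribed base was A in 9 of the 24 (37.5%), 28.6% of Zfp windows and 34.4% of all windows. GGAC was searched as those letters, and a match is a description of the window only. The peaks of Zfp91 overlapped peaks of Gm44505 on the same strand, so their gene is uncertain, and the HKO start peak of Zfp708 likewise overlapped a peak of Rslcan18.

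**Figure D3:**
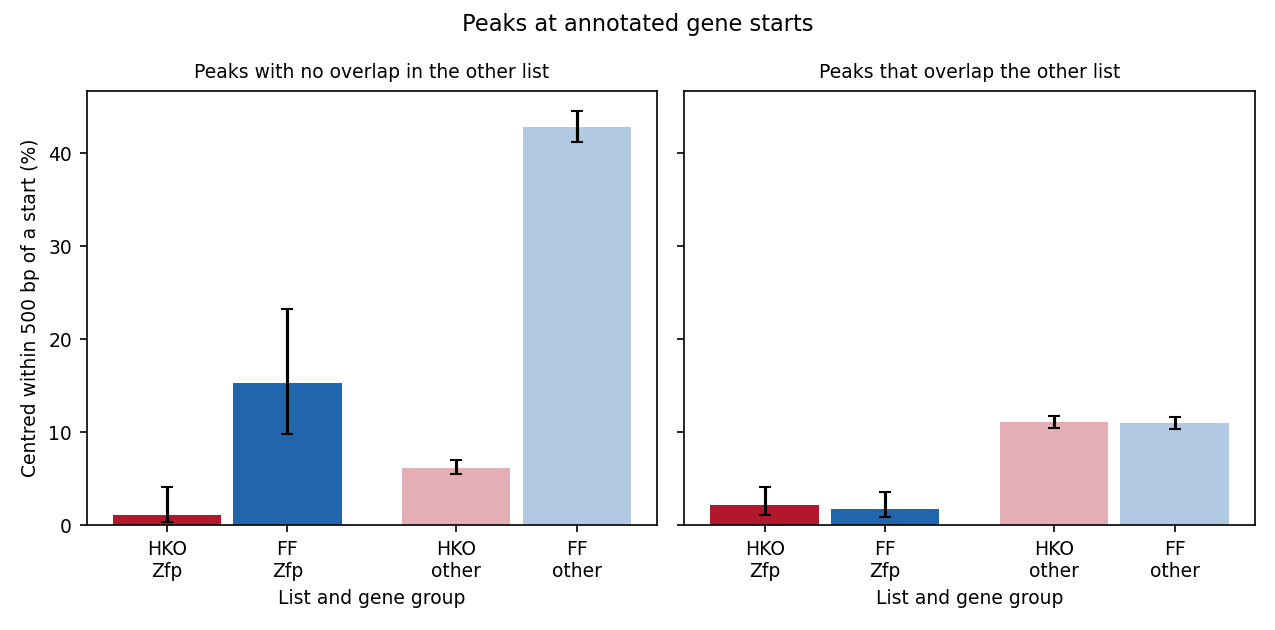
Share of peaks (%, vertical axis) centred within 500 bp of an annotated start, for Zfp and other genes in the HKO list (red) and the FF list (blue), among peaks that overlap no peak of the other list (left) and those that do (right). Bars are shares and whiskers 95% Wilson intervals for counting error. The FF bar for list-specific Zfp peaks reaches 15.3% and the HKO bar 1.16%, both under the bars for other genes at 42.8% and 6.19%.

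Set against each other, the lists shared most Zfp peaks and Zfp genes. A peak counted as shared where its exon blocks had 1 bp or more in common with a same-strand peak of the other list. Of the HKO peaks of members 411 overlapped an FF peak (70.4%, 66.6 to 73.9), leaving 173 HKO-specific (29.6%, with 28.5% over all genes). Of the FF peaks of members 404 overlapped an HKO peak (78.4%, 74.7 to 81.8), leaving 111 FF-specific (21.6%, with 25.2% over all genes). At the level of genes, 241 members had peaks in both lists (86.4%, 81.9 to 89.9, against 75.2% of other genes). A further 20 had peaks only in HKO (7.17%, with 13.2% over all genes) and 18 only in FF (6.45%, with 11.2% over all genes). Among peaks with a q of 1e-05 or less, 5.63% of HKO peaks (3.50 to 8.95) and 4.88% of FF peaks (2.81 to 8.33) of members overlapped nothing in the full other list, against 14.6% and 11.2% for other genes.

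The 411 HKO peaks with an FF partner (the FF peak of greatest overlap) lay on 231 genes. The fold was higher in the HKO list for 250 of them (60.8%, against 58.3% of 10511 pairs over all genes), and the median ratio of HKO over FF was 1.24 (interquartile range 0.754 to 2.18), against 1.20 over all genes. A fold at least 2 times higher in HKO was found for 115 pairs (28.0%, with 27.4% over all genes) and at least 2 times higher in FF for 60 (14.6%, with 16.3% over all genes). The members' shares thus lie close to those of all genes. Since the folds come from separate IP reactions with 1 pool each, they give no direction of change.

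**Figure D4:**
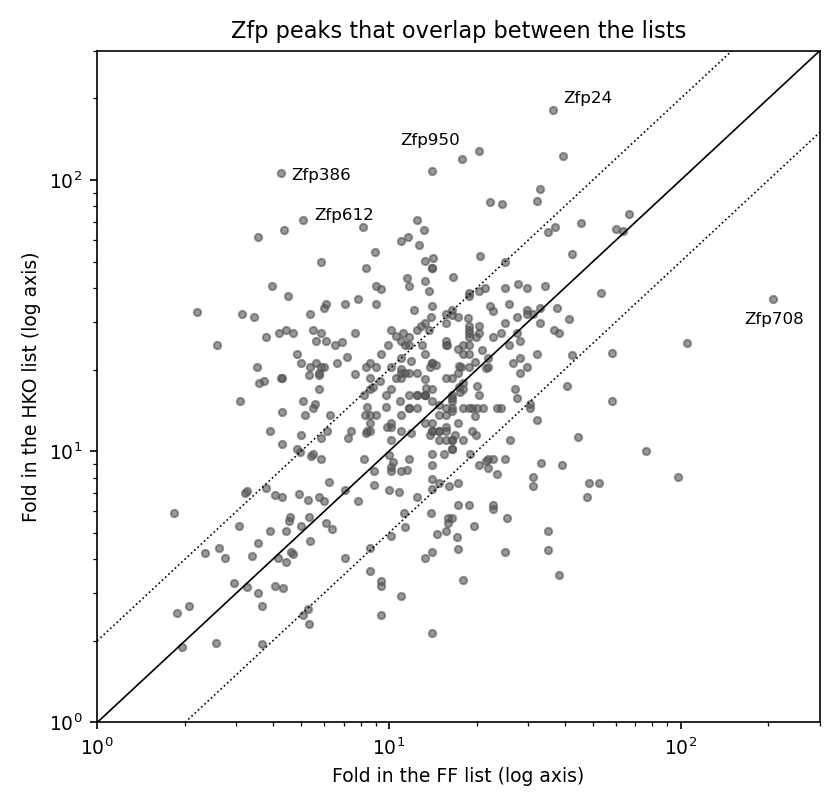
Fold in the HKO list (vertical log axis) against fold in the FF list (horizontal log axis) for each of the 411 HKO peaks of Zfp genes that overlap an FF peak. The solid line marks equal folds and the dotted lines a ratio of 2 either way; 115 points lie on or above the upper line and 60 on or below the lower one.

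The shared peaks of highest HKO fold lay on Zfp24, Zfp950, Zfp142, Zfp281, Zfp213, Zfp386, Zfp976, Zfp64 and Zfp157, all of them higher in HKO, as choosing by HKO fold favours. The peak on Zfp24, a regulator of myelination, had a fold of 182 in HKO and 36.4 in FF with nearly equal log10 q values of -57.7 and -57.4. Zfp386 carried the widest gap of these, with 106 in HKO and 4.27 in FF, for peaks that begin at the same base (116058974 on chromosome 12). On Zfp142 the folds were 123 in HKO and 39.6 in FF for a peak centred 540 bp from the gene end in HKO and 480 bp in FF, and here the FF peak had the smaller log10 q, -50.9 against -41.3 in HKO. Zfp950 had 1 long peak of 1048 bp and fold 128 in HKO, where FF had 2 peaks of folds 11.8 and 20.4. Zfp213 had 108 in HKO and 14.0 in FF, and Zfp157 had 83.2 in HKO and 22.2 in FF. Zfp976 had 92.5 in HKO and 32.9 in FF, and Zfp64 had 84.0 in HKO and 32.1 in FF. The opposite order was seen on Zfp708, whose peak near the gene end on chromosome 13 had 36.5 in HKO (67069458 to 67070385) and 208 in FF (67069458 to 67069996), the highest fold of any Zfp peak in the FF list.

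Among the genes with most peaks, Zfp646 led with 7 in HKO and 7 in FF, spread over most of the gene on chromosome 7. Its 6 shared HKO peaks ran from a fold of 7.21 to 21.2, and all 7 FF peaks, from 4.86 to 26.6, overlapped an HKO peak. Zfp609, a partner of the cohesin loader and a regulator of muscle and neural development, had 8 in HKO and 5 in FF, and 3 of the HKO peaks and none of the FF peaks were list-specific. Its peaks formed 2 groups, one centred 32195 to 32795 bp after the start and one 3793 to 12755 bp before the end. Zfp318, needed in B cells for surface IgD, had 6 in HKO and 5 in FF, with list-specific peaks that lie side by side on chromosome 17, an HKO peak of fold 25.5 at 46412410 to 46412770 and an FF peak of fold 6.74 at 46412829 to 46413039. Zfp574 had 5 in HKO and 6 in FF, Zfp316 had 6 in HKO and 4 in FF, and Zfp507 had 5 in HKO and 3 in FF. In all 14 members had 8 or more peaks over both lists, 8 of them exactly 8. Of the 14 there were 10 with an HKO-specific peak and 6 with an FF-specific one. Over all genes 28.5% of HKO peaks and 25.2% of FF peaks were list-specific. A gene with more peaks has more that can be list-specific, and other genes with as many peaks were not counted.

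**Figure D5:**
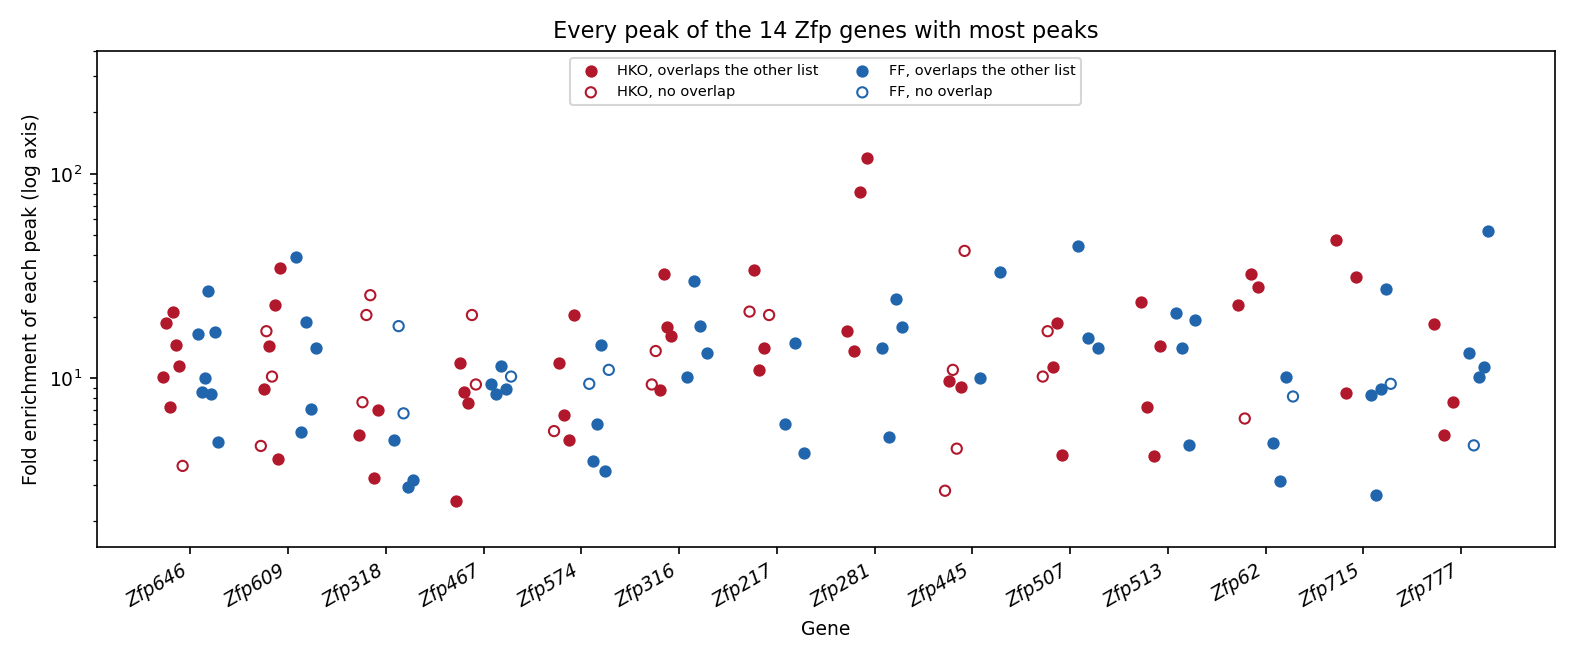
Fold of every peak (vertical log axis) of the 14 Zfp genes with 8 or more peaks over both lists (horizontal axis), HKO peaks in red left of FF peaks in blue, in order of position, with filled points for peaks that overlap the other list and open points for those that do not. Open red points are seen on 10 of these genes and open blue points on 6. Over all genes 28.5% of HKO peaks and 25.2% of FF peaks did not overlap the other list. The highest points are the HKO peaks of Zfp281 at 81.5 and 120.

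The number of peaks per member was greater in HKO for 105 genes (37.6%, against 29.9% of all genes), greater in FF for 65 (23.3%, against 26.1%) and equal for 109. A surplus of 3 or more peaks was found in HKO for 10 members (3.58%, with 1.02% over all genes) and in FF for 0 (with 0.415% over all genes). A surplus of this size needs 3 or more peaks in 1 list. Members with an HKO peak had more HKO peaks per gene than other genes (2.24 against 1.70). The HKO list was also the longer, with 14693 peaks against 14057. Genes of like peak number were not compared. Of all HKO peaks of members 29.6% were HKO-specific, with 28.5% over all genes. The 10 genes, listed after their counts were seen, were Zfp445 (6 in HKO and 2 in FF), Zfp644 (5 and 1), Zfp609 (8 and 5), Zfp319 and Zfp628 (5 and 2 each), Zfp106, Zfp39, Zfp760 and Zfp975 (4 and 1 each) and Zfp93 (3 and 0). HKO-specific peaks numbered 3 or 4 on 9 of them, and FF-specific peaks 0 on all 10, as choosing by a surplus of HKO peaks favours. The list-specific peaks of the 98 genes with this surplus over all genes were not counted. On Zfp644 the 4 HKO-specific peaks had log10 q values from -1.93 to -5.24.

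Strong list-specific peaks (q at most 1e-05, fold at least 2) numbered 16 in HKO (2.74% of HKO peaks of members, with 8.87% over all genes) and 11 in FF (2.14%, with 6.40% over all genes). In HKO those of smallest q lay on Zfp36l1, Zfp825, Zfp445, Zfp944, Zfp106, Zfp874a, Zfp182, Zfp788, Zfp131 and Zfp710. In FF they lay on Zfp598 (2 peaks), Zfp865, Zfp36l1, Zfp35, Zfp444, Zfp62, Zfp692, Zfp428 and Zfp933. Of the 16 HKO peaks 13 lay on a gene that also has a shared peak, as did 6 of the 11 FF peaks. At a gene start were 0 of the 16 HKO peaks and 2 of the 11 FF peaks, those of Zfp598 and Zfp36l1. Zfp825 had a shared peak with folds of 27.4 in HKO and 11.2 in FF, and next to it on chromosome 13 an HKO-specific peak of fold 76.4, at 74480715 to 74481135, with log10 q -24.8. Zfp865 had on chromosome 7 an FF-specific peak of fold 29.4, at 5030259 to 5030529, with log10 q -14.8, next to shared peaks whose folds were 8.02 and 20.5 in HKO and 97.9 and 13.8 in FF.

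Genes in a single list rested mostly on 1 weak peak. The 20 members seen only in HKO had best peaks with folds of 2.83 to 28.0 (median 12.3) and a median log10 q of -2.50, and 18 of them had 1 peak. The 18 members seen only in FF had folds of 4.22 to 23.5 (median 12.1) and a median log10 q of -2.62, and 16 had 1 peak. A q of 1e-05 or less was reached by Zfp788 in HKO (fold 28.0 with log10 q -6.62) and by Zfp444, Zfp692, Zfp428 and Zfp933 in FF (folds 4.22, 6.40, 22.7 and 23.5).

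The CCCH decay factors had peaks in both lists on Zfp36, Zfp36l1 and Zfp36l2, and none on Zfp36l3. Zfp36, which encodes tristetraprolin, carried a wide shared peak on chromosome 7. Its fold was 22.3 in HKO (28377890 to 28379228, log10 q -146) and 7.20 in FF (28377950 to 28379228, log10 q -78.1). In both lists this peak reached the annotated gene start at 28379228. Its centre lay inside the gene, 1435 bp before the end in HKO and 1465 bp in FF. By its centre, this peak was not counted among the start peaks. A smaller one nearer the end had folds of 2.53 in HKO and 1.87 in FF. Zfp36l2 carried a shared peak with identical limits in both lists, 84185243 to 84186231 on chromosome 17, with folds of 22.7 in HKO and 42.4 in FF. Zfp36l1 was unlike both, since none of its peaks overlapped between the lists. In HKO it had a long peak of 956 bp on chromosome 12, at 80109281 to 80110236, of fold 7.68 with log10 q -30.7, and a weak one of fold 1.54. In FF it had the start peak given above and a weak one of fold 1.98 at 80108715 to 80108864.

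Of 7 KRAB genes with known roles in imprinting and retroelement silencing, 5 had a peak, with 14 peaks in HKO and 6 in FF, of which 8 in HKO (4 of them on Zfp445) and 0 in FF were list-specific, next to 28.5% of HKO peaks and 25.2% of FF peaks over all genes. Zfp445, which with Zfp57 maintains methylation of imprinted regions, had a shared peak with the same limits in both lists, of fold 9.02 in HKO and 33.2 in FF, and on chromosome 9 an HKO-specific peak of fold 42.0, at 122861866 to 122862165, with log10 q -22.0. Zfp809, which silences retroviruses through their primer binding site, had 2 peaks in each list. The wider one, over 3 exon blocks, had folds of 16.5 in HKO and 17.5 in FF with log10 q of -150 and -178. The other had 40.7 in HKO and 3.96 in FF. Zfp568, a repressor of a placental Igf2 transcript, had a shared peak with folds of 27.2 in HKO and 38.4 in FF. Zfp932 had an HKO peak only (fold 16.1, log10 q -3.69), and Zfp57 and Zfp819 had none.

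Of 5 promoter and pluripotency factors, 4 had peaks in both lists, with 12 in HKO and 12 in FF and 1 list-specific peak in each list, next to 28.5% of HKO peaks and 25.2% of FF peaks over all genes. Zfp281, which restrains Nanog in stem cells, had 4 and 4 in the same order along its gene on chromosome 1, with folds of 17.0, 13.6, 81.5 and 120 in HKO and 14.1, 5.17, 24.5 and 17.8 in FF. The first is thus close between the lists and the last wide apart. Zfp148 had 1 long HKO peak of 1078 bp (fold 69.2) where FF had 2 adjoining peaks (folds 5.18 and 45.4). Zfp219, with 3 in HKO and 4 in FF, had low folds throughout, at most 7.73 in HKO and 6.21 in FF. Zfp143, an activator that binds many promoters, had 2 HKO peaks of folds 4.41 and 13.6 within the span of 1 FF peak of fold 8.62. Zfp42, a stem cell marker, had none.

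Of 8 regulators of fat cells and metabolism, 5 had peaks in both lists, with 17 in HKO and 12 in FF. Zfp467, which favours the adipocyte over the bone lineage, had 6 in HKO and 5 in FF, 4 of the HKO peaks shared. Its strongest peak by q, at 48438336 to 48438634 on chromosome 6, had the same limits in both lists and folds of 8.55 in HKO and 11.5 in FF. Zfp217, an oncogene whose protein has been reported to bind METTL3, the m6A methyltransferase, had 5 in HKO and 3 in FF, 2 of the HKO peaks list-specific with folds of 21.2 and 20.4. Its shared peaks differed in order: the first had fold 33.9 in HKO and 6.01 in FF, the middle one was higher in FF, and the last had 14.0 in HKO and 4.31 in FF. Zfp69, a candidate gene for diabetes in obese mice, had 1 peak in each list (14.4 in HKO and 21.1 in FF). Zfp407, which acts with PPARG in fat cells, had 3 in HKO and 2 in FF and shared 1, of fold 20.4 in HKO and 29.8 in FF. Zfp516, an activator of Ucp1 in brown fat, had weak peaks in both lists that did not overlap. Zfp423, Zfp521 and Zfp125 had none.

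Of 9 genes of RNA processing and the ribosome, 7 had peaks in both lists, with 17 in HKO and 12 in FF. Zfp207, a spindle and splicing factor, had 1 peak with folds of 31.3 in HKO (80395437 to 80395856 on chromosome 11, log10 q -154) and 3.46 in FF (80395527 to 80395856, log10 q -44.3). Zfp326, a subunit that couples transcription to splicing, had peaks that begin at the same base in both lists and the opposite order, with log10 q -44.2 in HKO and -72.6 in FF and the higher fold in FF. Zfp830, a spliceosome component, had a strong peak of fold 64.1 in HKO, and beside it 2 smaller ones, where FF had a single peak of 1282 bp and fold 35.1 over the same stretch. Zfp638 had a shared peak of 34.4 in HKO and 22.3 in FF. Zfp106, an RNA-binding protein of muscle and motor neurons, shared 1 peak (4.11 in HKO and 3.39 in FF) and had 3 further HKO peaks, the strongest of fold 19.9 with log10 q -9.06. Zfp622, a ribosome maturation factor known from its yeast counterpart, had 2 HKO peaks, of folds 2.14 and 7.88, within the span of 1 FF peak of 955 bp and fold 14.1. Zfp598 had 2 in HKO and 4 in FF and shared only the peak near its end, with folds of 2.69 in HKO and 2.07 in FF.

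Of 7 genes of chromatin, ubiquitin and SUMO pathways, 6 had a peak. Zfp91, a ubiquitin ligase, had the smallest q of the Zfp peaks in each list, both on chromosome 19: fold 41.3 in HKO (12769788 to 12770448, log10 q -281) and fold 27.6 in FF (12769848 to 12770358, log10 q listed at minus infinity). Zfp644, which recruits the histone methyltransferases G9a and GLP, shared 1 peak, of fold 28.0 in HKO and 13.7 in FF. Zfp451, a SUMO ligase, had 4 in HKO and 3 in FF and an FF start peak of fold 7.05. Zfp518a shared a peak of 34.8 in HKO and 25.8 in FF. Zfp335 had a peak in HKO alone (fold 3.08) and Zfp518b in FF alone (fold 9.40), both weak, with log10 q of -2.15 and -1.57. Zfp462 had none.

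Many Zfp genes lie in chromosomal clusters of related copies. Chromosome 7 held 142 HKO peaks (24.3%) and 119 FF peaks (23.1%) of members, against 7.71% and 8.04% of all peaks. Chromosome 17 held 13.4% and 13.8%, against 4.82% and 4.81%. Of the 397 coding Zfp genes in RefSeq, 93 lie on chromosome 7 and 46 on chromosome 17. A cluster was taken as 3 or more coding Zfp genes with gaps of at most 250 kb. Of 202 clustered genes 147 had a peak (72.8%), and of 195 others 130 (66.7%). Clustered genes had median folds of 14.4 in HKO and 12.8 in FF and other Zfp genes 13.6 in HKO and 10.6 in FF. The largest cluster, 23 genes on chromosome 13 between 67038594 and 67827000, had peaks on 20 genes, with 32 in HKO and 35 in FF. The 18 genes on chromosome 17 between 21383707 and 22456689 had peaks on 15, with 27 in HKO and 25 in FF. On chromosome 7 between 127233061 and 127885996 all 10 genes, Zfp646 among them, had peaks, with 27 in HKO and 25 in FF. The cluster of 12 genes on chromosome 4 between 146449030 and 147849126 had peaks on only 3 genes, with 1 in HKO and 2 in FF. Reads of close copies may be placed on the wrong member, so peaks of clustered genes are uncertain in their gene.

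The corepressor machinery that KRAB proteins recruit, none of it Zfp genes, had peaks on 10 of 14 genes, 8 of them in both lists, with 21 peaks in HKO and 21 in FF. Trim28 had an FF peak alone (fold 5.22, log10 q -4.20) and Cbx3, a heterochromatin protein, an HKO peak alone (fold 13.6, log10 q -2.59). Setdb1 had 2 and 2, all shared, with folds of 18.9 and 6.25 in HKO and 7.27 and 3.58 in FF. Cbx5, Dnmt1, Hdac1 and Hdac2 had none.

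Other families of zinc finger transcription factors had fewer members. Peaks of Zbtb genes, which join a BTB domain to zinc fingers, numbered 87 in HKO and 83 in FF on 36 genes, with median folds of 12.7 and 11.4, next to 14.4 and 11.7 for Zfp genes. At a start lay 4.60% of HKO and 3.61% of FF peaks of Zbtb genes, and 0 of 24 HKO and 6 of 28 FF peaks of Klf genes, the Kruppel-like factors. Zscan genes, whose fingers go with a SCAN domain, had 52.6% of 19 HKO peaks and 45.0% of 20 FF peaks between 1000 and 4000 bp before the gene end, the band that held 50.9% of HKO and 49.9% of FF peaks of Zfp genes. In that band lay 36.8% of HKO and 34.9% of FF peaks of Zbtb genes, 6 of 20 HKO and 6 of 16 FF peaks of Zkscan genes, and 5 of 24 HKO and 7 of 28 FF peaks of Klf genes. Genes with a peak had on average 2.71 peaks in HKO and 2.86 in FF for Zscan, and 2.86 and 2.29 for Zkscan. For Zbtb the means were 2.49 in HKO and 2.31 in FF, and for Klf 2.00 and 2.80. The means for Zfp genes were 2.24 and 1.99. Median folds were 10.7 in HKO and 15.4 in FF for Zscan, 9.95 and 9.61 for Zkscan, and 9.18 and 7.31 for Klf. The Zscan median was thus below that of Zfp genes in HKO and above it in FF. A single exon block held 95.4% of HKO and 94.0% of FF peaks of Zbtb genes, next to 94.7% and 95.3% for Zfp genes. Such a block held 18 of 19 HKO and 19 of 20 FF peaks of Zscan genes. For Zkscan the counts were 18 of 20 and 14 of 16, and for Klf 20 of 24 and 25 of 28. Differences between these families were not tested.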

How the data were processed

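Per the deposited design text, the authors called peaks for each genotype's IP against its input with exomePeak 2.16.0, keeping peaks with a q-value up to 0.05. Per the submitters' processing notes, HOMER 4.9.1, BWA 0.7.12 and fastp 0.19.11 were used, with build GRCm38.p6. The antibody and library kit differ between the design text and the sample protocols. Deposited values per peak are a p-value, the log10 of p and of q (treated as a score, with minus infinity where the authors' number was too small to hold) and a fold ratio of IP over input by the authors. Depth is unknown.

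Tables were read and joined in pandas 2.3.3 under Python 3.11.15; intervals used scipy 1.17.1 and numpy 2.4.6; figures used matplotlib 3.10.9. Coordinates count from base 1. Starts and ends come from RefSeq. All 279 member symbols matched the RefSeq table. Within a list, no Zfp peak was left out. The overlap code was tested on simulated data. With 1 pool per genotype no test was run between genotypes. Named genes are those with most peaks (10 and all ties), the highest shared folds, the strong list-specific peaks of smallest q, single-list genes with a q of 1e-05 or less, and the role lists. Members and lists were chosen with earlier results of these data known. The sequence under the peaks, exon models and proteins were not analysed here.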

Additional observations from a re-analysis of the deposited data

How the results depend on the processing

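Of 64 values recomputed under other settings, 47 stayed within the counting interval of the reported value (or within 1.5 times of a count) and 17 moved. Keeping only peaks with q at most 1e-05 gave median folds of 22.9 in HKO and 14.3 in FF, an overlapping share of FF peaks of 82.1%, 35 members seen only in HKO, 80 strong HKO-specific and 43 strong FF-specific peaks, and 2.50% (HKO) and 6.82% (FF) of list-specific peaks at a start, with intervals that overlap; by construction, a peak counts as list-specific there when its partner misses the limit. Strong peaks numbered 79 in HKO and 31 in FF at a q of 1e-03, and 4 in HKO and 4 in FF at 1e-10. With Zfp genes outside clusters only, a setting chosen after the data were seen, the FF median fold was 10.6, 9 members were seen only in HKO and 7 only in FF, 6 strong FF-specific peaks were left, and 23.9% of FF-specific peaks were at a start; fewer genes were counted. Using only the start of the whole gene span, also chosen later, gave 8.11% for FF. With both lists at the same length, 18 members were seen only in HKO and 19 only in FF, which turns the order of those counts. No paired analysis was possible because each genotype had 1 pool. Depth limits the lists to an unknown degree.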
